A study of Mus musculus with 18 samples.

Results

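G9a, a histone methyltransferase, was set against H3K9me2, the mark it writes, in cardiomyocyte-enriched populations from control mice. The members were regions of the authors' deposited G9a and H3K9me2 lists that overlapped each other by a share of at least 0.5 of both regions, on chromosomes 1 to 19 of mm10 (GRCm38). There were 146768 such matched regions, which is 23.8% of the 617784 G9a regions and 20.6% of the 711506 H3K9me2 regions on these chromosomes, and all lists of the series together hold 2377384 regions. The 4 libraries compared were 2 made with anti-G9a (Sigma G6919) and 2 made with anti-H3K9me2 (Abcam ab1220). All came from C57BL/6J mice of the genotype alphaMHC-MerCreMer +/- (Cre), which carry a Cre recombinase under the promoter of the cardiac alpha myosin heavy chain gene. The series also profiled mice whose G9a gene is flox/flox on that transgene (KO), along with H3K27me3 and Mef2c in both genotypes. The input libraries, 1 per genotype, were not analysed here. Each list holds regions that its authors called different between Cre and KO, so the KO libraries entered this comparison through the choice of regions and through the listed direction.

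G9a is encoded by Ehmt2 and works in a complex with its close relative GLP, encoded by Ehmt1. It methylates histone H3 at lysine 9, mainly up to the dimethylated state, and that mark is found over broad stretches of silent chromatin in many cell types. Proteins of the heterochromatin protein family read methylated lysine 9. The enzyme and its product need not lie at the same places, since the mark outlasts the visit of the enzyme, other enzymes write it and demethylases remove it.

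Promoter windows of genes that the results turn on are shown first, since 5 of them lie under matched regions, the Fmnl2 one only in part. Each runs from 250 bases before to 50 bases after a gene start, is taken from RefSeq (GRCm38.p6), reads 5′ to 3′ along the gene and has its CG dinucleotides in capitals. Gm21149 (chr5:15476487-15476786, minus strand), Gm21190 (chr5:15529173-15529472, minus strand) and Myh6 (chr14:54966558-54966857, minus strand) lie under regions where G9a and H3K9me2 were both high, placed by the G9a list; the H3K9me2 region paired with the Gm21190 one ends before the window. Cd55b (chr1:130422994-130423293, minus strand) and Prkg1 (chr19:31764984-31765283, minus strand) head the genes with G9a high alone and with H3K9me2 high alone that had a promoter in the table, and no matched region covers either window. Rab39 (chr9:53706183-53706482, minus strand) and Fmnl2 (chr2:52857618-52857917, plus strand) are the CG-rich windows where G9a stood highest and lowest against H3K9me2, chosen after their values were seen.
Gm21149: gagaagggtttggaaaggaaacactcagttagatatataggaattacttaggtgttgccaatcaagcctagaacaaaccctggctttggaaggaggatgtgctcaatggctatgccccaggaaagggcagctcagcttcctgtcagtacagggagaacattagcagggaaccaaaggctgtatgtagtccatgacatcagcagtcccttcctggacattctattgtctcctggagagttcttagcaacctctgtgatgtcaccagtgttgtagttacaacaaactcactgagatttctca
Gm21190: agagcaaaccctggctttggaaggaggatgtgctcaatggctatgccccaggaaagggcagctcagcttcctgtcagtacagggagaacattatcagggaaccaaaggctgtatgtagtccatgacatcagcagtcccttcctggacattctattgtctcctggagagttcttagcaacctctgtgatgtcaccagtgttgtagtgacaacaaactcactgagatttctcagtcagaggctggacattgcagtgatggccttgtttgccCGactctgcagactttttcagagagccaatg
Myh6: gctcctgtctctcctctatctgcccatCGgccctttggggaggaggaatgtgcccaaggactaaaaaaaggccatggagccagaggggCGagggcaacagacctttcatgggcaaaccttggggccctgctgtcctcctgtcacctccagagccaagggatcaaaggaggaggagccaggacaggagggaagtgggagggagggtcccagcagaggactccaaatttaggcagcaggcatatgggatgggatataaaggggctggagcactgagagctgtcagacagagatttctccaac
Cd55b: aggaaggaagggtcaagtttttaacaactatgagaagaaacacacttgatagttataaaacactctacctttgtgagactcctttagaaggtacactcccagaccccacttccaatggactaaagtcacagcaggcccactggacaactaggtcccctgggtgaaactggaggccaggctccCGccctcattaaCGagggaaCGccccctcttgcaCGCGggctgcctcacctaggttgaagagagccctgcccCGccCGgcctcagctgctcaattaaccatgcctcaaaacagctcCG
Prkg1: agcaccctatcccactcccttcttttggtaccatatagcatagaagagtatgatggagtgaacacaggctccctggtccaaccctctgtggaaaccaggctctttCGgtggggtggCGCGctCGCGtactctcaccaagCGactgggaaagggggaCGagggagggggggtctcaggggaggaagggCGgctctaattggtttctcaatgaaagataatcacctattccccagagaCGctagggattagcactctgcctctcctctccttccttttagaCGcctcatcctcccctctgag
Rab39: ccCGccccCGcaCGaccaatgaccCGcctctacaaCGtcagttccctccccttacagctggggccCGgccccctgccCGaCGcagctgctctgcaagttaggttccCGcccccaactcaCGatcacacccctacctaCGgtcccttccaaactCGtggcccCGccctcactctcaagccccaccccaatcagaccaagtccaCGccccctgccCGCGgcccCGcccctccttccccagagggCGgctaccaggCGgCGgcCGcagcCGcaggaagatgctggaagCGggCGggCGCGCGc
Fmnl2: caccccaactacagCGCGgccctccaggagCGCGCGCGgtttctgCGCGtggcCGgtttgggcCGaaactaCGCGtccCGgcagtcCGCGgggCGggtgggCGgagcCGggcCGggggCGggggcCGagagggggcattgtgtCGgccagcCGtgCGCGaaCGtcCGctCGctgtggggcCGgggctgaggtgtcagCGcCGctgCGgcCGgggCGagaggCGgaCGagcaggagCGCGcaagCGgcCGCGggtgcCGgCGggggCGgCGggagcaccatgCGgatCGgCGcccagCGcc
The Gm21149 window holds 0 CG dinucleotides, the Gm21190 window 1 and the Myh6 window 2. The window of Zfp981, also under a region high together and not printed, holds 4. Cd55b has 8 and Prkg1 10, with no matched region over either window. Rab39 has 27 and Fmnl2 49, and both were picked among CG-rich windows, so these counts do not compare the classes. The median over all 20085 windows of protein-coding genes was 14. The Gm21149 and Gm21190 windows share 231 bases at a fixed offset, of which 228 were identical, so reads from that stretch can be split between the copies.

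Each region has 1 listed signal value per library. The value was divided by the region's length in kb and then by the library's median over the matched regions, and a relative value of 1 is therefore the middle of a library. Before scaling, the medians were 167.1 and 160 per kb in the G9a libraries and 136 and 123.1 per kb in the H3K9me2 libraries. The scale of the listed values and the read depth behind them are unstated in the sources at hand. G9a had a narrower spread than H3K9me2: the SD of log2(relative value + 0.1) over regions was 0.72 and 0.67 in the G9a libraries, against 0.93 and 1.02 in the H3K9me2 libraries. Relative values of 2 or more were reached by 2205 and 1703 regions in the G9a libraries and by 11418 and 13578 regions in the H3K9me2 libraries.

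The G9a libraries were no more alike than libraries of different antibodies and the H3K9me2 libraries hardly more, and every result below has to be read beside this. Across the 146768 regions the Spearman correlation was 0.148 between the G9a libraries and 0.187 between the H3K9me2 libraries, while the 4 pairs of a G9a with an H3K9me2 library gave 0.149 to 0.180. These are descriptions across regions that share their libraries and lists, so they carry no p. The mean G9a level and the mean H3K9me2 level correlated at a Spearman rho of 0.282 and a Pearson r of 0.296 on the log2 scale. Over 2392 windows of 1 Mb the means correlated at 0.406. There rho was -0.039 between the G9a libraries and 0.180 between the H3K9me2 libraries, while the 4 pairs across antibodies gave 0.137, 0.145, 0.175 and, for the first G9a with the second H3K9me2 library, 0.394. The number of genes in a window correlated at 0.282 with the first and at -0.115 with the second G9a library, against -0.162 with the first and 0.168 with the second H3K9me2 library. Neither antibody therefore had 1 sign in relation to gene number.

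G9a and H3K9me2 levels went up together in a shallow way. In the 10% of regions with the least G9a, the G9a medians were 0.419 and 0.450 and the H3K9me2 medians 0.755 and 0.715. In the 10% with the most G9a, the G9a medians were 1.52 and 1.49 and the H3K9me2 medians 1.18 and 1.22. The increase in H3K9me2 was present at each step between 10 such groups in both libraries, and its range was narrower than that of G9a. In bulk chromatin a region marked in fewer cells and a region marked less strongly per cell cannot be told apart.

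**Figure D1:**
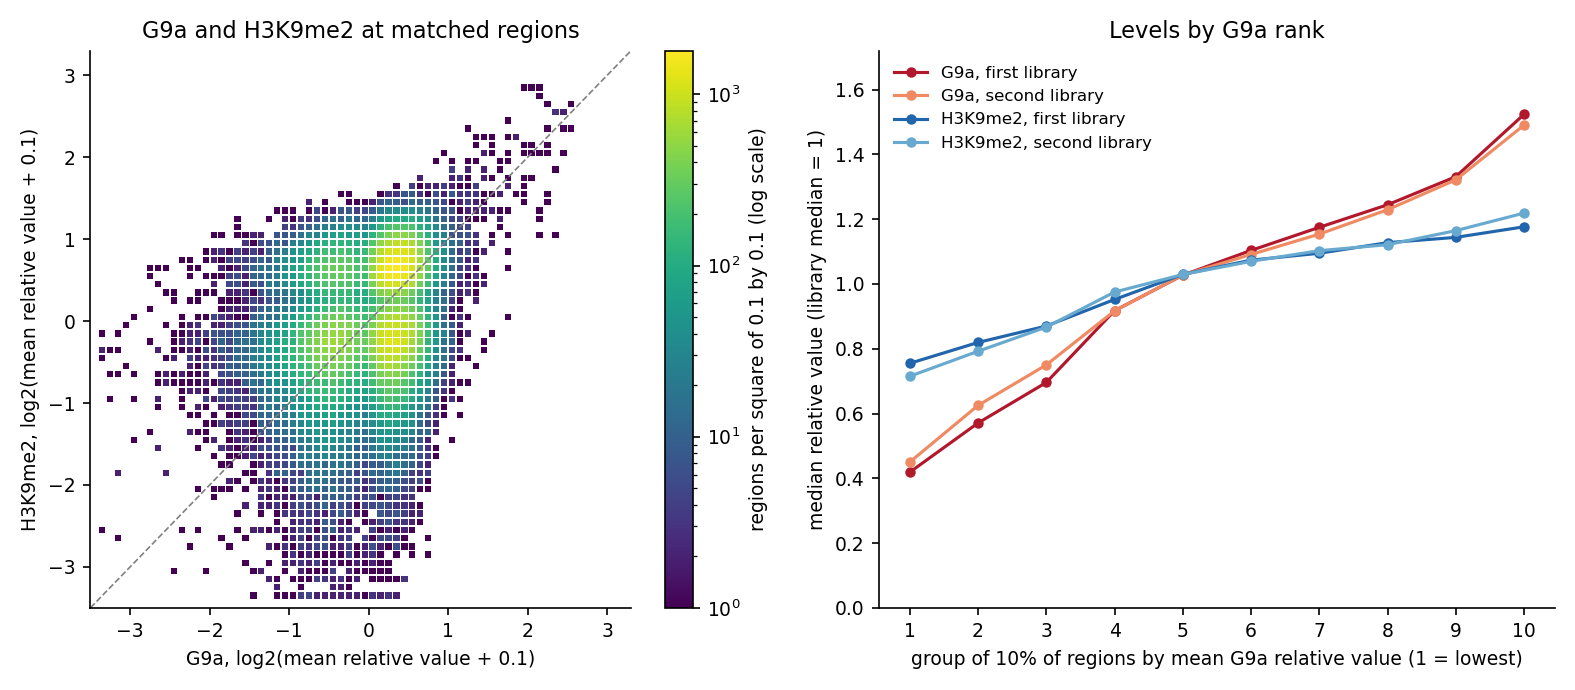
The left panel counts matched regions by mean G9a (horizontal) and mean H3K9me2 (vertical) on the log2(relative value + 0.1) scale, with the colour giving regions per square on a log scale and the dashed line marking equal levels. The right panel gives the median relative value of each of the 4 libraries in 10 equal groups of regions ordered by mean G9a; the H3K9me2 medians lie between 0.715 and 1.22. A thin tail of regions runs along the line at the upper right, where both are high.

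The levels followed the direction in which the lists place a region. Where G9a and H3K9me2 were both listed as higher in Cre than in KO (46040 regions, 31.4%), the medians were 1.22 and 1.18 for G9a and 1.52 and 1.56 for H3K9me2. Where G9a was listed as higher in Cre and H3K9me2 as higher in KO (46459 regions, 31.7%), they were 1.18 and 1.18 for G9a and 0.728 and 0.716 for H3K9me2. The opposite combination was the rarest (12608 regions, 8.59%), with 0.649 and 0.670 for G9a and 1.51 and 1.52 for H3K9me2. Where both were listed as higher in KO (41661 regions, 28.4%), the medians were 0.605 and 0.658 for G9a and 0.676 and 0.650 for H3K9me2. Within these 4 combinations the means of G9a and H3K9me2 correlated at only 0.117 to 0.171, below the 0.282 over all regions. The libraries of 1 antibody correlated negatively within every combination, at -0.49, -0.50, -0.26 and -0.28 for G9a and at -0.57, -0.42, -0.60 and -0.39 for H3K9me2 in the order above, whereas the pairs across antibodies lay between 0.0069 and 0.084. Within a listed direction, a region high in 1 library of an antibody thus tended to be low in its other library, and the positive correlation between libraries over all regions was not present there. A region is listed because its Cre and KO values differ, so the Cre level and the listed direction are linked by the way the lists were made.

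**Figure D2:**
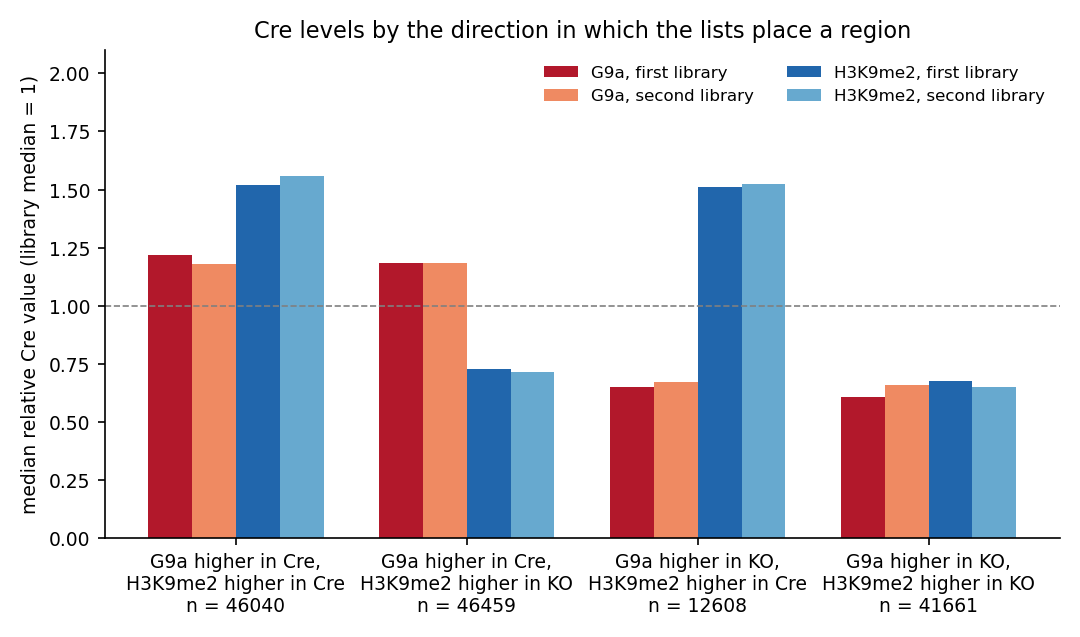
Bars give the median relative Cre value of each library over the matched regions of each combination of listed direction, with the dashed line at the library median. G9a bars stand near 1.2 where G9a is listed higher in Cre and near 0.65 where it is listed higher in KO, and H3K9me2 bars near 1.5 and 0.7 in the same way.

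**Figure D3:**
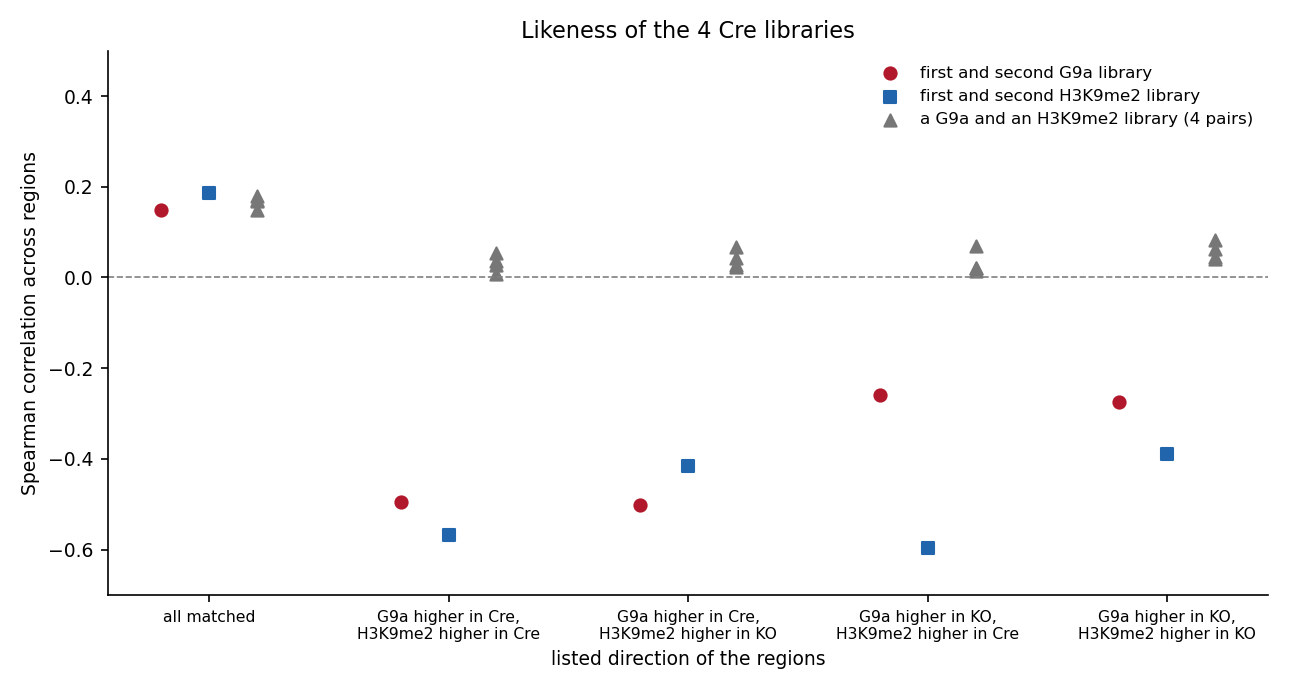
Points give the Spearman correlation across regions between the first and second G9a library (circles), the first and second H3K9me2 library (squares) and each G9a with each H3K9me2 library (triangles), over all matched regions and within each combination of listed direction, with the dashed line at 0. Over all matched regions every pair lies between 0.148 and 0.187, while within each combination both same-antibody pairs are negative and the pairs across antibodies lie near 0.

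No region or gene passed the test for a difference between G9a and H3K9me2 over all regions or genes. On log2(relative value + 0.1), limma with Benjamini-Hochberg adjustment over all 146768 regions called 0 regions at an adjusted p of 0.05, and the lowest adjusted p was 0.923. At an unadjusted p under 0.05 it gave 1260 regions (0.858%) with G9a higher and 4173 (2.84%) with G9a lower than H3K9me2. Together these were 5433 regions (3.70%), a share below the 0.05 that this threshold lets through where nothing differs. Both G9a values lay above both H3K9me2 values in 16.3% of regions and below both in 18.2%. Over 12304 protein-coding genes touched by a matched region, limma also called 0 genes at an adjusted p of 0.05. At an unadjusted p under 0.05 it gave 231 genes (1.88%) with G9a higher and 355 (2.89%) with G9a lower. The total of 586 genes (4.76%) was likewise below that share. Without the second H3K9me2 library the fit called 7 regions, with the lone remaining library assumed to vary like the others. An exact permutation test on 1 region can give no two-sided p under 0.333 with 2 libraries per antibody. The levels below are given as values in each library for that reason.

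Regions were called high together when all 4 libraries reached a relative value of 2. There were 77 of them (0.0525% of matched regions), with medians of 2.98 and 3.54 for G9a and of 3.27 and 3.44 for H3K9me2. G9a reached 2 in both of its libraries at only 127 regions, and 60.6% of these were also at 2 or more in both H3K9me2 libraries, compared with 0.606% of all matched regions. Seen from the mark, H3K9me2 reached 2 in both libraries at 890 regions, and 8.65% of these were high in G9a, compared with 0.0865% of all matched regions. The weakest region inside the class had a lowest value of 2.003 and the strongest outside it 1.987, and 39 regions had a lowest value from 1.8 to 2. Read from 3 libraries, the class held 127 regions without the first and 121 without the second G9a library, 97 without the first and 84 without the second H3K9me2 library.

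Of the regions high together, 46 lay in 8 stretches of 3 or more. Joined within 1 Mb, all 77 formed 32 stretches, and 17 of these were a single region. The stretch with the most, on chromosome 4 from 145679901 to 147601500, held 14 regions among a run of zinc finger genes that includes Zfp980, Zfp981, Zfp993, Zfp978 and Zfp985. Their median relative values were 2.93 and 3.28 for G9a and 3.01 and 2.63 for H3K9me2. On chromosome 5 from 15060301 to 15699400, 6 regions, which touched Gm21149, Gm21190 or no gene, had medians of 4.04 and 4.13 for G9a and 4.16 and 3.99 for H3K9me2. On chromosome 1 from 85067801 to 85636400, 5 regions, which touched Gm38510, Sp140 (a nuclear body protein gene) or no gene, had 2.90 and 3.54 for G9a and 5.55 and 4.84 for H3K9me2. In this stretch the H3K9me2 medians were above both G9a medians, whereas in the chromosome 5 stretch the libraries overlapped. On chromosome 8 from 71130151 to 72643950, 4 regions, which touched Gm7827, Gm5373 or no gene, had 2.81 and 3.16 for G9a and 3.12 and 4.52 for H3K9me2. Stretches of 5 regions each lay on chromosome 14, from 6161551 to 6986900 and from 43268201 to 43361200, the second of which holds Gm8126 and Gm8127. Short stretches without a protein-coding gene, of 4 regions on chromosome 4 from 3049651 to 3071250 and of 3 on chromosome 16 from 3231151 to 3253900, had G9a medians of 4.34 and 4.75 and of 4.99 and 5.22, against H3K9me2 medians of 2.93 and 4.0 and of 4.81 and 5.21. The same places led among windows of 1 Mb: all 4 libraries averaged 1.5 or more in 4 of 2392 windows, at 15 to 16 Mb of chromosome 5, 6 to 7 Mb of chromosome 14 and 146 to 148 Mb of chromosome 4. The sources at hand do not say how the authors placed reads that match more than 1 place, and beyond the pair of promoters shown above the likeness of these regions to other places was not examined.

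Of the 77 regions, 27 touched a protein-coding gene with 2 kb either side (35.1%, compared with 34.2% of all matched regions), and 22 genes were touched (0.106% of 20665). Zinc finger genes named Zfp made up 5 of the 22, out of 388 such genes. Relative values were read for the strongest region of each gene. At Gm21149 they were 5.03 and 5.05 for G9a and 5.70 and 5.59 for H3K9me2. The next region, which covers the Gm21149 promoter shown above, had 3.56 and 4.22 for G9a and 4.38 and 4.16 for H3K9me2. At Zfp978 they were 3.84 and 4.91 for G9a and 6.55 and 6.46 for H3K9me2. At this region the mark stood above the writer in both libraries (log2 difference -0.57, SE 0.25, adjusted p 0.923 by limma). The order was reversed at another Zfp978 region of the class, from 147123401 to 147129150. It had 3.14 and 4.49 for G9a and 2.75 and 2.96 for H3K9me2. At the remaining Zfp978 regions of the class the antibodies overlapped. The strongest Gm38510 region had a wider gap than the strongest Zfp978 one, with 3.39 and 4.43 for G9a and 7.16 and 7.36 for H3K9me2. Trpm8, the cold-sensing ion channel, had 3.42 and 4.22 for G9a and 3.95 and 4.22 for H3K9me2. Gm7827 had 3.33 and 3.89 for G9a and 3.78 and 5.30 for H3K9me2. Both H3K9me2 values lay above both G9a values again at Gm8126, with 2.41 and 2.71 for G9a and 5.05 and 4.18 for H3K9me2. Gm21190 ran the other way, with 3.94 and 3.69 for G9a and 2.64 and 2.63 for H3K9me2.

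Heart muscle was represented in the class by a region over the start of Myh6 and the end of Myh7, the alpha and beta myosin heavy chain genes of heart muscle. It runs from 54965151 to 54971500 on chromosome 14, covers the Myh6 promoter shown above, and had listed values of 7256 and 4271 for G9a and of 4712 and 2152 for H3K9me2. The relative values were 6.84 and 4.2 for G9a and 5.41 and 2.73 for H3K9me2, and the groups overlapped (log2 difference 0.47, SE 0.29, adjusted p 0.923 by limma). The first G9a value was the highest of any matched region in that library. Without the second H3K9me2 library the log2 difference was -0.013. H3K27me3, the Polycomb mark, stood at 5.21 and 1.94 times its list median there, and Mef2c, a muscle transcription factor, at 8.99 and 5.75 times. The alphaMHC promoter of the transgene is sequence of this kind, from upstream of Myh6, and in all mice of the series signal from the transgene and from the native gene cannot be told apart here.

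The other targets were high at these regions too. Of the 77 regions high together, 71 overlapped a listed H3K27me3 region and 71 a listed Mef2c region (92.2% each), compared with 48.0% and 45.5% of all matched regions. Where they overlapped, the median relative level was 2.37 and 2.17 for H3K27me3 and 2.87 and 2.85 for Mef2c, compared with 1.08 and 1.09 and with 1.05 and 1.08 over all matched regions. With any overlap counted, both H3K27me3 libraries reached 2 at 37 of the 77 regions and at 2962 of all 146768. Both Mef2c libraries did so at 56 of the 77 and at 124 of all. A narrower rule left out regions where H3K27me3 or Mef2c reached 2 in both libraries in a region overlapping reciprocally by 0.5 or more. Of the 77, 34 remained, among them regions with such levels at a smaller overlap. The regions were also wide, with a median of 2250 bases in the G9a list and 2000 in the H3K9me2 list, compared with 700 and 750 over all matched regions. The part of H3K27me3, Mef2c and region width in the high G9a and H3K9me2 levels was not tested.

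**Figure D4:**
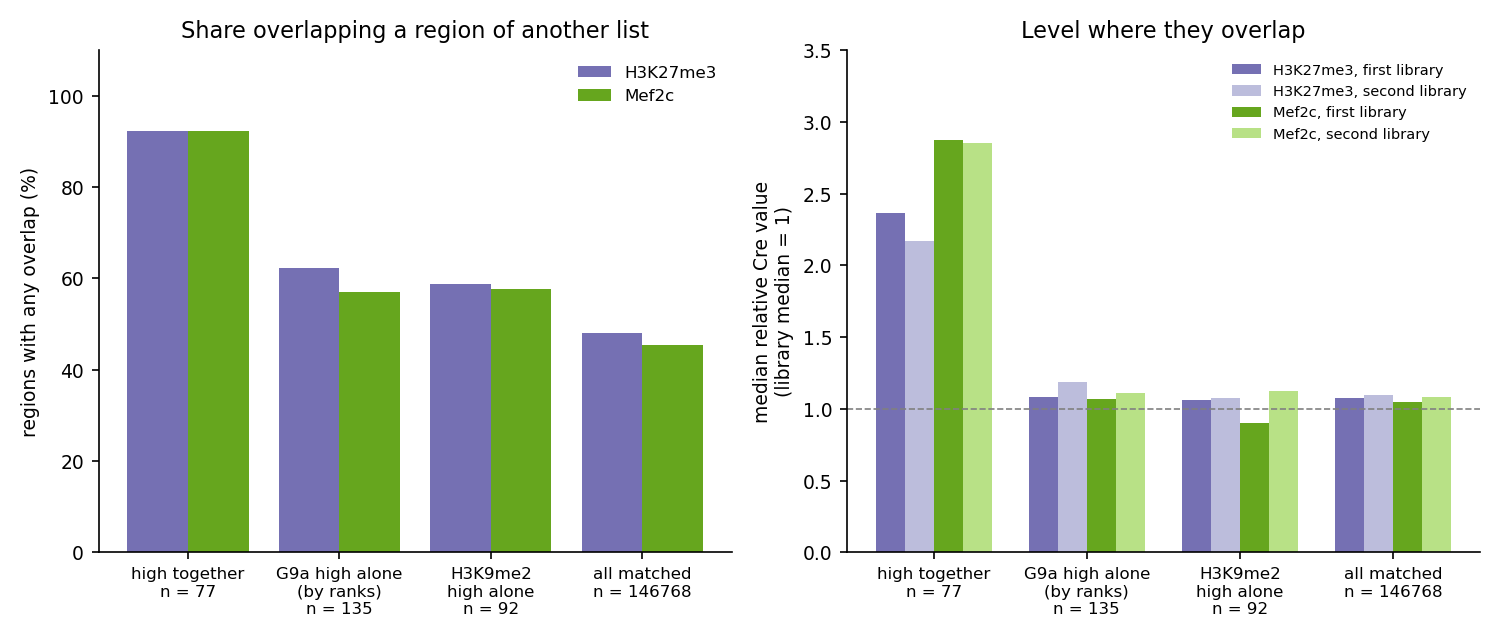
Bars give, for each class and for all matched regions, the share of regions that overlap a listed H3K27me3 or Mef2c region (left) and the median relative Cre value of both libraries of each target where they overlap (right, dashed line at the list median). The 77 regions high together stand at 92.2% and between 2.17 and 2.87. The classes with 1 antibody high alone stay near the level of all matched regions on the right. On the left they stand between 57.0% and 62.2%, against 48.0% for H3K27me3 and 45.5% for Mef2c over all matched regions.

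G9a high without H3K9me2 was seen at 1 region (0.000681%) when high meant 2 or more in both G9a libraries and low meant 1 or less in both H3K9me2 libraries. It lies on chromosome 3 from 122398401 to 122399350, 20.4 kb from Bcar3, a signalling adaptor gene, and touches no gene. Its listed values were 336 and 335 for G9a and 47 and 52 for H3K9me2, or 2.12 and 2.2 for G9a and 0.329 and 0.402 for H3K9me2 on the relative scale (log2 difference 2.28, SE 0.67, adjusted p 0.923 by limma). The count rested on both libraries of an antibody: it was 333 without the first and 471 without the second G9a library, 7 without the first and 8 without the second H3K9me2 library. With the threshold of 2 moved to 1.5 after seeing the data, 368 regions were high together (0.251%), 262 had G9a high alone (0.179%) and 1477 had H3K9me2 high alone (1.01%). Since G9a rarely reached 2, a rank definition was added as well, with the highest 10% of each library as high (from 1.58 and 1.56 for G9a, from 1.90 and 1.97 for H3K9me2) and the lower part, up to the library median, as low. The ranks gave 142 regions high together (0.0968%), 135 with G9a high alone (0.092%) and 139 with H3K9me2 high alone (0.0947%), which touched 40 (0.194%), 40 (0.194%) and 25 (0.121%) of the 20665 genes. Among the 915 regions in the highest 10% of both G9a libraries, 15.5% were in the highest 10% of both H3K9me2 libraries, compared with 0.898% of all matched regions, and 14.8% were in the lower part of both, compared with 30.6%.

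The genes named for G9a high alone come from the rank definition, by the rule of the strongest region per gene. Cntnap5a, of the neurexin-related contactin-associated family, had 1.88 and 1.88 for G9a and 0.568 and 0.487 for H3K9me2. A region in Vwf, the gene of von Willebrand factor made by endothelial cells, had 1.90 and 1.61 for G9a and 0.340 and 0.493 for H3K9me2 (log2 difference 1.85, SE 0.71, adjusted p 0.923 by limma). Plagl1, an imprinted zinc finger transcription factor gene, had 2.34 and 1.64 for G9a and 0.598 and 0.347 for H3K9me2. These 3 regions had no overlap between the antibodies, as the class requires. The others were 1700006A11Rik, Adamtsl1, Cd55b, Anln and Tenm4, with G9a between 1.61 and 2.12 and H3K9me2 between 0.0105 and 0.606. Anln, which codes for the cytokinesis protein anillin, held the lowest of these H3K9me2 values, from a listed value of 1. All 8 regions were listed as higher in Cre for G9a and as higher in KO for H3K9me2, as were 94.8% of the class, against 31.7% of all matched regions. The class and the listed direction both rest on the Cre values, so this share is not a separate result. H3K27me3 and Mef2c were near their list medians over the class, at 1.08 and 1.19 and at 1.07 and 1.11.

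H3K9me2 was high without G9a at 92 regions (0.0627%) under the threshold definition, with medians of 0.638 and 0.740 for G9a and 2.19 and 2.23 for H3K9me2. Without the first or the second G9a library there were 239 or 265, and without the first or the second H3K9me2 library 2060 or 1795. Of these 92, 14 touched a gene (15.2%, compared with 34.2% of all matched regions), reaching 14 genes (0.0677%); 21.7% lay 200 to 500 kb and 12.0% over 500 kb from the nearest protein-coding gene, compared with 12.9% and 10.1% of all matched regions. The share touching a gene was 18.0% by ranks, and it was 472 of the 1477 regions at the threshold of 1.5 (31.96%), close to all matched regions. The strongest was in Prkg1, the gene of a cGMP-dependent protein kinase, with listed values of 31 and 52 for G9a and of 264 and 333 for H3K9me2. Its relative values were 0.265 and 0.464 for G9a and 2.04 and 2.85 for H3K9me2 (log2 difference -2.47, SE 0.64, adjusted p 0.923 by limma). Ryr3, a calcium release channel gene, had 0.183 and 0.618 for G9a and 2.06 and 2.01 for H3K9me2. Pde4d, a cAMP phosphodiesterase gene, had 0.608 and 0.458 for G9a and 2.44 and 2.08 for H3K9me2. The log2 difference was -2.24 (SE 0.71) at Ryr3 and -1.90 (SE 0.56) at Pde4d, and none of the 3 regions passed the adjusted threshold. Anks1b, which codes for a postsynaptic protein, had 0.672 and 0.308 for G9a and 2.98 and 2.21 for H3K9me2. The remaining named genes were Stau2, an RNA-binding protein gene, Prickle2, Epha6 and Cdh18, with G9a between 0.339 and 0.886 and H3K9me2 between 2.0 and 2.48. All 8 were listed as higher in KO for G9a and as higher in Cre for H3K9me2, as were 93.5% of the 92, against 8.59% of all matched regions. As for G9a high alone, this share is linked to the class by the Cre values and is not a separate result. H3K27me3 stood at 1.06 and 1.08 and Mef2c at 0.899 and 1.13 over the class.

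**Figure D5:**
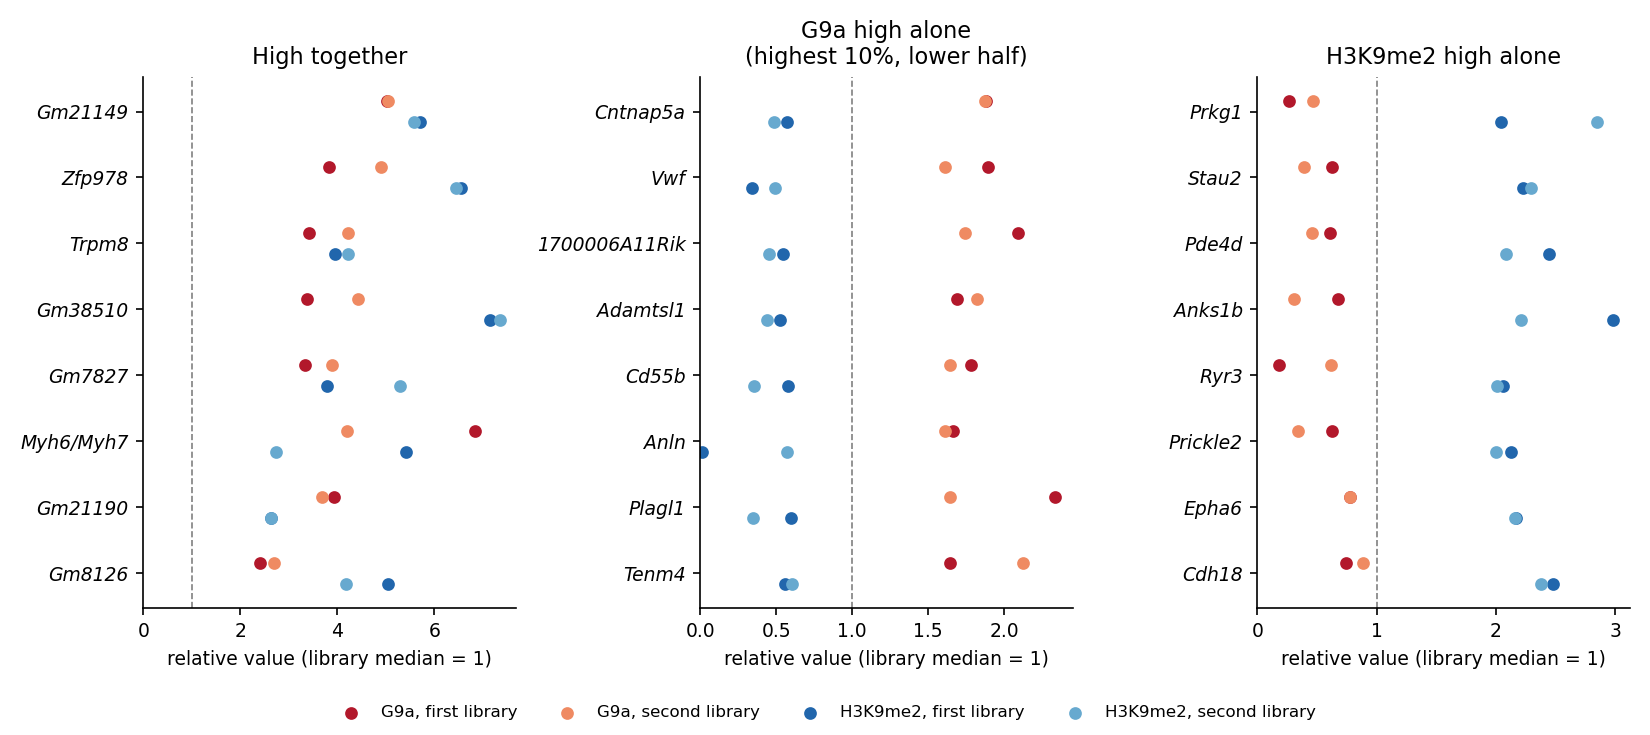
Points give the relative value in each library (1 is the library median, dashed line) for the 8 named regions of each class, with G9a above H3K9me2 in each row. In the left panel all points lie at 2.41 or more; in the middle and right panels the antibodies do not overlap, which the definition of these classes requires.

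For classes set from fewer libraries, the median of the high antibody was under 2 in the library left. Classes were set from 1 library of each antibody, and the other library of each antibody was then read. Regions high together in the first libraries (n = 335) had medians of 1.13 in the other G9a library and 1.48 in the other H3K9me2 library, and the 4 ways of choosing gave 1.13 to 1.24 for G9a and 1.37 to 1.89 for H3K9me2, all under the threshold of 2. Regions with G9a high alone in the first libraries (n = 847) had 0.842 in the other G9a library and 0.908 in the other H3K9me2 library, and the 4 choices gave 0.797 to 0.848 for G9a and 0.908 to 0.989 for H3K9me2. Regions with H3K9me2 high alone in the first libraries (n = 4372) had 1.14 in the other G9a library and 1.03 in the other H3K9me2 library, over the 4 choices 1.14 to 1.17 for G9a and 1.01 to 1.09 for H3K9me2. The other G9a library was thus about as high where H3K9me2 had been high alone as where both had been high. The other H3K9me2 library was higher for regions high together than for either class with 1 antibody high alone, in all 4 choices. Libraries of 1 antibody correlated negatively within every listed direction, so whether a class is kept cannot be judged from these values.

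A promoter window was overlapped, at Fmnl2 only in part, by 1039 regions (0.708%). The share expected from the length of the windows was not worked out. Windows with 16 or more CG made up 29.0% of these regions against 46.0% of all windows in the table. Over the 301 regions on such CG-rich windows the medians were 0.930 and 1.11 for G9a and 0.824 and 0.855 for H3K9me2, while over the 261 on windows with 0 to 2 CG they were 1.14 and 1.05 for G9a and 0.994 and 1.06 for H3K9me2. Within regions listed as higher in Cre for both targets, the H3K9me2 medians were 1.60 and 1.5 on CG-rich windows and 1.5 and 1.63 on CG-poor windows, so the mark was not lower there in both libraries. It was lower in both where G9a was listed as higher in Cre and H3K9me2 as higher in KO, at 0.694 and 0.703 on CG-rich windows and 0.791 and 0.762 on CG-poor windows. Where both were listed as higher in KO it was 0.525 and 0.661 on CG-rich windows and 0.679 and 0.628 on CG-poor windows. At Rab39, a small GTPase gene of vesicle traffic, the region over the window had 1.71 and 1.35 for G9a and 0.434 and 0.325 for H3K9me2 (log2 difference 1.77, SE 0.78, adjusted p 0.92 by limma). Fmnl2, a formin gene of actin assembly, had 0.609 and 0.375 for G9a and 1.51 and 1.5 for H3K9me2 (log2 difference -1.47, SE 0.71).

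The genes of the writer and its partner held 1 or 2 matched regions each, where the median over genes with a region was 2. Ehmt2, the gene of G9a (chromosome 17, 34898463 to 34914073), had 2 regions, with listed values of 157 and 75 for G9a and 108 and 64 for H3K9me2 at the first and of 123 and 174 for G9a and 452 and 77 for H3K9me2 at the second. The H3K9me2 libraries were far apart at the second region, and the antibodies overlapped at both regions. Ehmt1 had 1 region, with 104 and 129 for G9a and 111 and 22 for H3K9me2. Mef2c had 1 region, with 75 and 94 for G9a and 70 and 42 for H3K9me2, and Nppa and Nppb, the natriuretic peptide genes, had 0.

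Gene lists were compared on a gene level, the summed value of all matched regions over a gene with 2 kb either side, per kb and relative to the library's median gene. Over all 12304 genes the median log2 difference was 0.00, and both G9a values lay above both H3K9me2 values in 16.7% of genes and below both in 17.4%. Of 12 calcium handling genes with a region, 6 had both G9a values below both H3K9me2 values and 0 had both above. In this list 0 genes passed an unadjusted p of 0.05, and the median log2 difference was -0.23. Cacna1c, the L-type calcium channel subunit, had 0.850 and 0.883 for G9a and 1.27 and 1.14 for H3K9me2, and Slc8a1, the sodium-calcium exchanger, had 0.915 and 0.987 for G9a and 1.34 and 1.32 for H3K9me2. The log2 difference of Slc8a1 was -0.45, and it was 0.058 over regions of the same listed direction alone. The other cardiac lists varied. Both G9a values lay above both H3K9me2 values at 3 of 7 fetal and hypertrophy-associated genes and below at 0. The counts above and below were 1 and 3 of 9 metabolic genes and 1 and 0 of 8 sarcomere genes. They were 2 and 2 of 15 ion channel and junction genes and 2 and 0 of 8 cardiac transcription factors. Sarcomere genes had a median of 0.22 over 8 members and fetal and hypertrophy-associated genes 0.53 over 7. The region shared by Myh6 and Myh7, described above with the transgene, gave 2 sarcomere members and 1 fetal member their value. The fetal median equals that value, 0.53 with an SE of 2.75 at Myh6. Medians were -0.09 over 15 ion channel and junction genes, -0.05 over 9 metabolic genes and -0.19 over 8 cardiac transcription factors. In these lists 0 members had an unadjusted p under 0.05. Of 14 genes of the H3K9 methylation machinery with a region, 1 (7.14%) had an unadjusted p under 0.05 with G9a lower and 0 with G9a higher. The shares over all genes were 2.89% and 1.88%, and 1 gene is too few to set the list apart. This gene was Zfp644, whose human counterpart binds the G9a complex, with 0.307 and 0.484 for G9a and 1.93 and 0.981 for H3K9me2. Kdm1a, a histone demethylase gene, had 1.02 and 1.42 for G9a and 0.380 and 0.822 for H3K9me2.

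The counts of list members below stand against 1.88% of all 12304 genes with G9a higher and 2.89% with G9a lower at an unadjusted p under 0.05. Among developmental transcription factors, 1 of 21 with a region had an unadjusted p under 0.05. This was Lhx2, a LIM homeobox gene, with 0.402 and 0.665 for G9a and 1.64 and 2.08 for H3K9me2 (log2 difference -1.65, SE 0.35). The clustered protocadherins, neuronal adhesion genes on chromosome 18, had 10 of 47 genes at an unadjusted p under 0.05 with G9a lower (21.3%) and 0 with G9a higher, and a median log2 difference of -0.47. These genes overlap and share regions, 51 regions serving all 47, so the 10 are not separate observations. Pcdhb21 had 0.885 and 0.744 for G9a and 1.85 and 1.99 for H3K9me2. Pcdhga9 had 0.432 and 0.723 for G9a and 1.48 and 1.94 for H3K9me2. Keratin and keratin-associated genes had 7 of 59 with G9a lower (11.9%) and 1 with G9a higher (1.7%), led by Krt76 with 0.686 and 0.588 for G9a and 1.41 and 1.7 for H3K9me2, and a list median of 0.02; the log2 difference of Krt76 was -1.16, and it was 0.15 over regions of the same listed direction alone. The medians of the large receptor families were near 0: 443 olfactory receptors had 0.00, with 14 genes higher (3.16%) and 12 lower (2.71%) in G9a at an unadjusted p under 0.05. The 150 vomeronasal receptors had 0.06, with 9 higher (6.0%) and 3 lower (2.0%). Their share with G9a higher was above that of all genes, but 0 of them passed the adjusted threshold and the excess was not tested. The 215 Zfp genes had a median of 0.04 with 4 higher (1.86%) and 9 lower (4.19%), including Zfp30 with 0.422 and 0.639 for G9a and 1.75 and 1.81 for H3K9me2, and Zfp169 with 1.05 and 1.7 for G9a and 0.308 and 0.274 for H3K9me2. The high regions of the chromosome 4 zinc finger run belong to a family whose median gene levels were near 1. These were 0.979 and 1.04 for G9a and 1.05 and 0.998 for H3K9me2.

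Cell type could not be read from these levels, which are chromatin signal and not expression. Of 8 cardiomyocyte markers 3 had a matched region, with a median log2 difference of -0.05, and of them Myh6 was described above, Ryr2 had 0.681 and 0.746 for G9a and 1.07 and 0.946 for H3K9me2, and Myl2 had 1.39 and 0.824 for G9a and 0.922 and 1.34 for H3K9me2. Of 10 markers each, 9 endothelial (0.15), 9 fibroblast and matrix (0.11), 7 immune (-0.05) and 8 smooth muscle and pericyte markers (-0.06) had a region, with the median log2 difference in parentheses and 0 genes at an unadjusted p under 0.05. Other lists with a region were 15 germline and pluripotency genes (-0.25), 20 neuronal genes (-0.05), 14 imprinted genes (0.09), 6 housekeeping genes (-0.51), 6 histone cluster genes (0.39), 15 cytosolic ribosomal protein genes (-0.06), 79 cytochrome P450 genes (0.10) and 30 defensins (0.04).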

How the data were processed

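Chromatin immunoprecipitation libraries were made with the NuGEN Ovation Ultralow kit, and 2 biological replicates were profiled per antibody, per the labels and the series text. Per the submitters' processing notes, BWA 0.7.10-r789 and SAMtools 1.1 were used and the build was mm10 (GRCm38). The authors deposited 1 list per target of regions that differ between Cre and KO, with a direction and 4 signal values, Cre before KO, per the names of the lists and the sample descriptions. What called the regions, the unit, any normalization and any subtraction of input were not given in the sources used here. The deposited values were therefore not treated as counts, depth is unknown and no interval that rests on depth is given. A + direction goes with higher values in Cre.

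Regions on chromosomes 1 to 19 were paired with bedtools 2.31.1 at a reciprocal overlap of 0.5. Of 146953 pairs, the widest overlap per region was kept. Only the Cre values were used, per kb and divided by each library's median. With limma 3.58.1 (R 4.3.3, trended empirical Bayes), a model was fitted to log2(relative value + 0.1) over all regions and over all genes, G9a minus H3K9me2, with Benjamini-Hochberg adjustment at 0.05. Gene spans and promoters came from RefSeq (GRCm38.p6), without exons; 79.6% of protein-coding genes had a promoter in the table. Genes are named by rule: per class the 8 strongest regions of at least 500 bases that touch a gene, and up to 3 genes per list with the largest moderated t, of which some are printed; Ehmt2, Ehmt1, Myh6, Myh7, Mef2c, Nppa and Nppb were always looked up. The members and lists were chosen with earlier results of these data known.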

Additional observations from a re-analysis of the deposited data

How the results depend on the processing

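Depth is unknown and each antibody has 2 libraries, so the classes rest on few values; leaving out a library gives each remaining lone library the weight of its antibody. No paired analysis was possible because the listed values carry no replicate number. The alternatives with a threshold of 1.5, with ranks, in windows of 1 Mb, within a listed direction, without the highest 1% and without other targets were chosen after seeing the data. The causes of the shifts below were not tested.

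The number of regions called by limma was 5 over regions of the same listed direction, 5 over regions with a mean relative value of at least 0.5 (among them Gm38510, adjusted p 2.01e-05) and 0 to 7 leaving out a library; it was 0 under the other alternatives, as was the number of genes under all of them. The counts of regions high together, with G9a high alone and with H3K9me2 high alone were 23, 0 and 14 at a reciprocal overlap of 0.8. They were 34, 0 and 32 at a listed -log10 p of at least 10 and 40, 2 and 0 over regions of the same listed direction. In the settings on overlap, p and direction, each library was rescaled to its median over the regions kept, so these counts are not parts of the main classes. With high set at 3 they were 22, 0 and 0, with high at 1.5 they were 368, 262 and 1477, and by ranks 142, 135 and 139. Using the mean of both libraries they were 137, 35 and 686. H3K9me2 high alone was seen at 141 regions with each library scaled to its whole list and on 5 with low set at 0.5. Without regions where H3K27me3 or Mef2c reached 2 at a reciprocal overlap of 0.5 or more, 34 regions were high together. Those with such levels at a smaller overlap were kept in this count. Leaving out a library gave 84 to 127 regions high together, 7 to 471 with G9a high alone and 239 to 2060 with H3K9me2 high alone.

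The correlation of mean G9a with mean H3K9me2 stayed positive in each alternative run. It was 0.360 at an overlap of 0.8, 0.432 at the stricter p, 0.749 over regions of the same listed direction, 0.213 with the filter on low values, 0.406 in windows and 0.265 without the highest 1%. The 0.749 pools regions listed higher in Cre for both targets with regions listed higher in KO for both. Within each of these combinations the correlation was 0.125 and 0.171, and Cre level and listed direction are linked by how the lists were made. Leaving out a library gave 0.208 to 0.226. Within a listed direction it was 0.125 with both higher in Cre, 0.126 with G9a higher in Cre and H3K9me2 in KO, 0.117 with G9a higher in KO and H3K9me2 in Cre, and 0.171 with both higher in KO. Over regions of the same listed direction the log2 difference of Slc8a1 was 0.058 and that of Krt76 was 0.15, opposite in sign to the reported values. Leaving out a library gave -0.25 to 0.047 at Trpm8, -0.013 to 0.95 at the Myh6 and Myh7 region and -0.39 to 0.30 for the gene level of Myl2.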
